A study of Homo sapiens with 6 samples.

Results

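The cytosolic ribosomal protein genes are the protein-coding genes whose products, with ribosomal RNA, build the small (40S) and large (60S) subunits of the ribosome that translates nuclear mRNAs. They were chosen by symbol, as RPL or RPS followed by digits with an optional A, X, L or P suffix, together with RPSA, RPLP0, RPLP1 and RPLP2. Pseudogenes, the RPS6K kinases and RPS4Y genes were left out. The rule found 85 genes among the 57773 of the count table: 31 small-subunit proteins, 46 large-subunit proteins including the 3 stalk proteins, and 8 paralogues whose symbols end in L or L1. Of these, 83 had enough reads to be tested. Among the untested ones, RPL10L, a testis paralogue of RPL10, had 2 counts, both in Vector dish 3. Levels are given as CPM, reads scaled to library size.

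U251, the cells studied, is an established human glioblastoma line, from which poly-A RNA was sequenced. The PD-L1 group was a stable line that overexpresses CD274, the gene of the immune checkpoint ligand PD-L1, after lentiviral transduction. The Vector group was the same line carrying the empty lentiviral vector. Both lines were at passages 5 to 10, grew in DMEM with 10% serum and were collected 12 h after passage, with 3 dishes per group. With 1 transduced line per group, p-values cover variation among dishes only. CD274 averaged 1299.5 ± 61.4 CPM in PD-L1 dishes and 2.41 ± 0.97 CPM in Vector dishes (SD, n = 3 each), that is 9.07 ± 0.18 (SE) on the log2 scale (adjusted p = 1.45e-12, edgeR's quasi-likelihood test with Benjamini-Hochberg adjustment). Depths ran from 15678989 to 22270509 counts per dish. The markers VIM, NES, CD44, S100A6 and SOX2 were present in every dish, and all 5 were lower in PD-L1 dishes (adjusted p of 4.91e-05 to 0.0304 in the same test). CD44 averaged 208 CPM in PD-L1 dishes and 417 in Vector dishes, and the log2 fold changes of VIM, NES, S100A6 and SOX2 were -0.70, -0.64, -0.78 and -0.39. Their part in the results was not tested. GFAP averaged 1.70 CPM in PD-L1 dishes and 3.18 in Vector dishes (-0.91, adjusted p = 0.0166), and S100B stayed at or under 1.56 CPM. PTPRC, CD3E, CD68, VWF, EPCAM and MOG, which mark other cell types, each stayed at or under 0.636 CPM, with CD68 and MOG at 0 in 5 of the 6 dishes. The neuronal markers RBFOX3 and SYT1 reached at most 0.924 and 10.5 CPM, and MBP of oligodendrocytes at most 9.04 CPM, with MBP also lower in PD-L1 dishes (-0.59, adjusted p = 0.0204).

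Each ribosome holds 1 copy of almost every ribosomal protein, except for the stalk proteins RPLP1 and RPLP2, and a proliferating cell spends a large part of its mRNA on these genes. Their mRNAs classically begin with a cytosine followed by a run of pyrimidines, the 5′ terminal oligopyrimidine (TOP) tract, through which mTORC1 and LARP1 regulate their translation. Ribosomal proteins that are not built into ribosomes, above all RPL5 and RPL11 with the 5S rRNA, bind MDM2 and so stabilise p53. In bulk RNA, fewer cells and less RNA per cell cannot be told apart.

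The starts of several members are shown because the TOP tract is a sequence feature of the family that the symbol rule did not use, and because members and their paralogues differ in it. Each window spans 15 bases before and 15 bases from the annotated start (RefSeq, GRCh38.p14), 5′ to 3′ on the gene's strand. Capitals mark the unbroken run of C and T that begins with a C at the start itself. RPL28 lies at chr19:55385917-55385946 (+), RPL36A at chrX:101390996-101391025 (+), RPL36AL at chr14:49620612-49620641 (-), RPL26 at chr17:8383179-8383208 (-), RPL26L1 at chr5:172958714-172958743 (+), RPS27 at chr1:153990747-153990776 (+), RPS27L at chr15:63157463-63157492 (-) and RPL7L1 at chr6:42879601-42879630 (+).
RPL28: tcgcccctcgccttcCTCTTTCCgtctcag
RPL36A: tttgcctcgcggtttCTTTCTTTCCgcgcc
RPL36AL: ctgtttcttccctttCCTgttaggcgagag
RPL26: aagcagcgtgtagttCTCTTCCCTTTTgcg
RPL26L1: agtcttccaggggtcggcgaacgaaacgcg
RPS27: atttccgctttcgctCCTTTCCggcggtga
RPS27L: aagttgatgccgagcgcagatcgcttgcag
RPL7L1: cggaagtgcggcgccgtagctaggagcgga

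RPL28, RPL36A, RPL26 and RPS27 carried runs of 7 to 12 pyrimidines, RPL36AL one of 3, and RPL26L1, RPS27L and RPL7L1 none. Of the 68 members with a start in the RefSeq table, 47 (69.1%) began with a C followed by at least 4 bases that were each C or T. The same was true of 5.14% of all 27305 symbols in the table and of 6.42% of its 14988 protein-coding symbols. Only the gene's own strand at the annotated start was searched. Among the 6 paralogues with an annotated start, RPL22L1 was the only one with such a tract. A start without these letters says only that they are not at this annotated base.

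These genes were among the most abundant in U251. They made up 19 of the 50 genes with the highest mean CPM over the 6 dishes, 37 of the top 100 and 56 of the top 200. Per kilobase of the principal transcript, the 77 small- and large-subunit genes had a median of 918 CPM per kb and a highest value of 4708 CPM per kb, and 60 of them lay within 3-fold of the median. RPS2, a small-subunit protein near the mRNA entry site, led with 4760.1 CPM per kb in PD-L1 and 4656 CPM per kb in Vector dishes. RPL8 followed at 3404 in PD-L1 and 3490.2 CPM per kb in Vector dishes, and the stalk protein RPLP0 at 2728 in PD-L1 and 2692 CPM per kb in Vector dishes. RPS18 and RPL35 were also among the most abundant, at 2672 and 2324 CPM per kb over all dishes. For each of these 5 genes the PD-L1 and Vector dishes overlapped in CPM. Places per kb depend on the annotated length of the principal transcript, which was long for some genes. It was 3647 bases for RPL37A and 6434 for RPS27L. In PD-L1 dishes RPL37A averaged 805 CPM but 221 CPM per kb, and RPS27L 79.6 CPM but 12.4 CPM per kb.

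**Figure D1:**
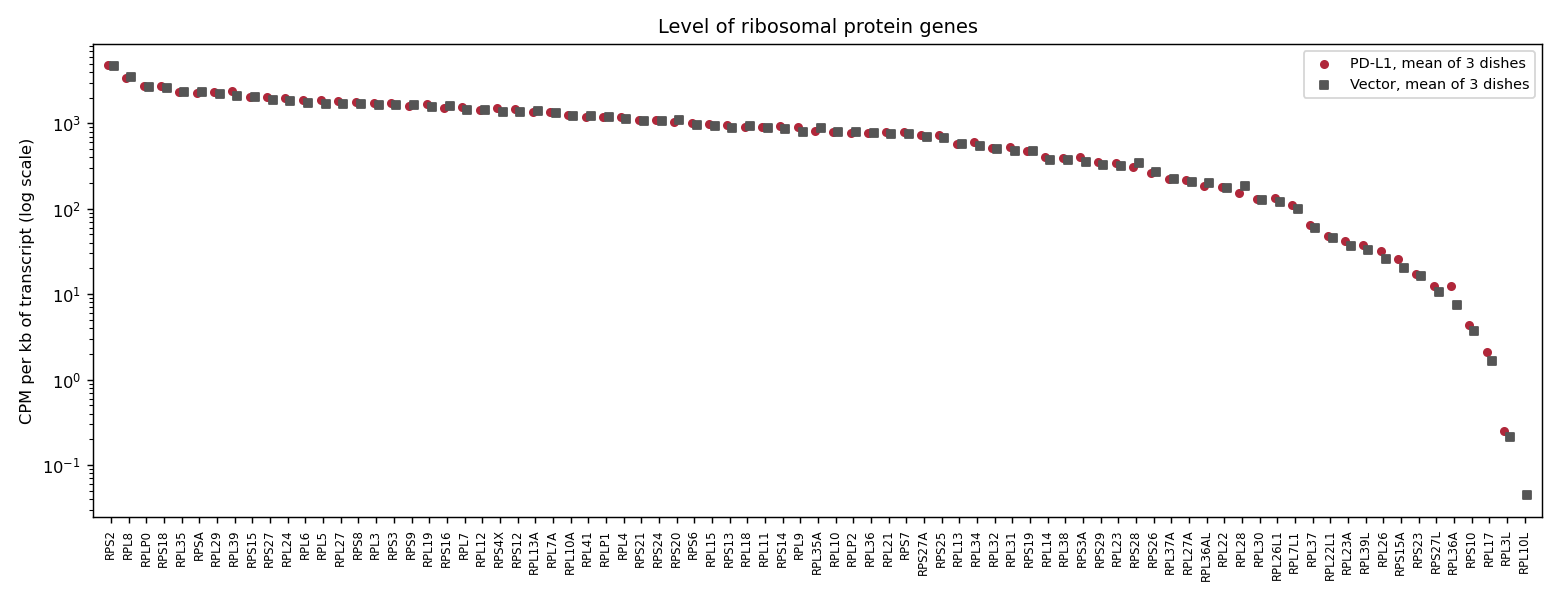
Level of ribosomal protein genes in CPM per kb of principal transcript (log axis), with circles for the mean of 3 PD-L1 dishes and squares for the mean of 3 Vector dishes, ordered by the mean of both groups. Most genes lie within 3-fold of the median of 918 CPM per kb, and a tail of low genes runs down to RPL17, RPL3L and RPL10L. Places in the order depend on the annotated transcript length as well as on CPM.

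A few core proteins had almost no reads of their own. In the PD-L1 dishes RPL17 averaged 1.62 ± 0.258, RPS10 2.81 ± 0.947 and RPL36A 5.37 ± 0.139 CPM. In the Vector dishes they averaged 1.25 ± 0.280, 2.39 ± 0.0877 and 3.24 ± 0.576 CPM (SD, n = 3 each). Each of these genes overlaps an annotated readthrough gene on the same strand (RPL17-C18orf32, RPS10-NUDT3 and RPL36A-HNRNPH2), and all 3 readthrough genes had 0 counts in every dish. A count of 0 allows up to 3 counts, which is 0.135 to 0.191 CPM at these depths, for counting error only. Near-identical copies also took reads. The table lists 1594 pseudogenes of the 85 members, and pseudogenes held 90.3% of the reads counted to RPL36A and its copies and 90.2% of those counted to RPL17 and its copies. The share was 41.8% for RPL23A, 38.2% for RPS2, 30.0% for RPS10 and 24.2% for RPL26. For RPS2 it came mostly from RPS2P46, with 174519 counts over the 6 dishes, and RPS2P5, with 155980. How reads that matched several places were counted is not given in the sources used here, so the levels of these genes are uncertain. Of all counts, these pseudogenes held 0.366, 0.340 and 0.427% in PD-L1 dishes 1 to 3, against 0.348, 0.374 and 0.319% in Vector dishes 1 to 3.

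Between PD-L1 and Vector dishes, RPL36A rose and no other ribosomal protein gene passed an FDR of 0.05. Thus 1 of 83 tested members was higher and 0 were lower. The background over all 15818 tested genes was 8.75% called, made up of 1.55% higher and 7.2% lower, so both counts lay near or under the background. An unadjusted p under 0.05 was reached by 6 members (RPL26, RPL28, RPL36A, RPL7L1, RPS15A and RPS27L), against 23.6% of all tested genes, and DESeq2 called 1 member higher (RPL36A, background 1.64%) and 1 lower (RPL28, background 7.48%). The median log2 fold change of the members was 0.08, beside 0.02 over all tested genes, and 76 of 83 members had an absolute log2 fold change under 0.2. The share of all tested genes under 0.2 was not counted. Absolute log2 fold changes had a median of 0.09 over the members and 0.15 over all tested genes. For the 71 small- and large-subunit genes with a mean of at least 1000 counts the SE of the log2 fold change was 0.08 to 0.14.

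RPL36A, a large-subunit protein also known as eL42 (ENSG00000241343, X chromosome), had raw counts of 113, 85 and 100 in PD-L1 dishes 1 to 3, against 57, 77 and 62 in Vector dishes 1 to 3. In CPM these were 5.51, 5.24 and 5.35 in PD-L1 dishes and 2.62, 3.76 and 3.34 in Vector dishes. Every PD-L1 dish lay above every Vector dish. The rise was 1.66-fold, or 0.73 ± 0.17 (SE) on the log2 scale (adjusted p = 0.0156, edgeR's quasi-likelihood test). With the reads of its 52 pseudogenes added, the log2 fold change was 0.31 (adjusted p = 0.261), and for its most abundant copy, RPL36AP37, it was 0.26 (adjusted p = 0.373). The call was also lost without PD-L1 dish 1 (0.71, adjusted p = 0.0624) and without Vector dish 1 (0.59, adjusted p = 0.0877).

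RPL28 (ENSG00000108107, chromosome 19), a large-subunit protein, had the lowest log2 fold change of all members. Its levels were 410.2, 379.9 and 501 CPM in PD-L1 dishes 1 to 3, against 521, 554 and 511 CPM in Vector dishes 1 to 3. The PD-L1 dishes lay below the Vector dishes without overlap, with PD-L1 dish 3 only just below the lowest Vector dish. The difference was -0.30 ± 0.10 (SE) on the log2 scale (adjusted p = 0.0749 in edgeR's quasi-likelihood test and 0.0373 in DESeq2). With GC content and transcript length fitted as an offset in each dish, it was -0.26 (adjusted p = 0.00654). RPL28 overlaps UBE2S on the opposite strand in GENCODE 29, and the library kit does not mark strand. In all, 38 members overlap a gene on the opposite strand.

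The groups did not overlap for 4 members. RPL36A, RPL7L1 and RPS27L were higher in every PD-L1 dish than in every Vector dish (3 of 83, against a background of 12.1%), and RPL28 was lower (1 of 83, against 15.5%). Next to these, the largest log2 fold changes belonged to low genes with wide errors, namely RPL17 (0.38 ± 0.26), RPS15A (0.35 ± 0.14), RPL26 (0.31 ± 0.14) and RPS10 (0.25 ± 0.24), none of which passed the test. RPS15A had 36.9, 29.1 and 39.2 CPM in PD-L1 dishes 1 to 3, against 33.0, 27.3 and 22.3 CPM in Vector dishes 1 to 3. Its groups overlapped. At the other end, RPS28 (-0.14 ± 0.10) and RPL36AL (-0.11 ± 0.10) did not pass either.

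**Figure D2:**
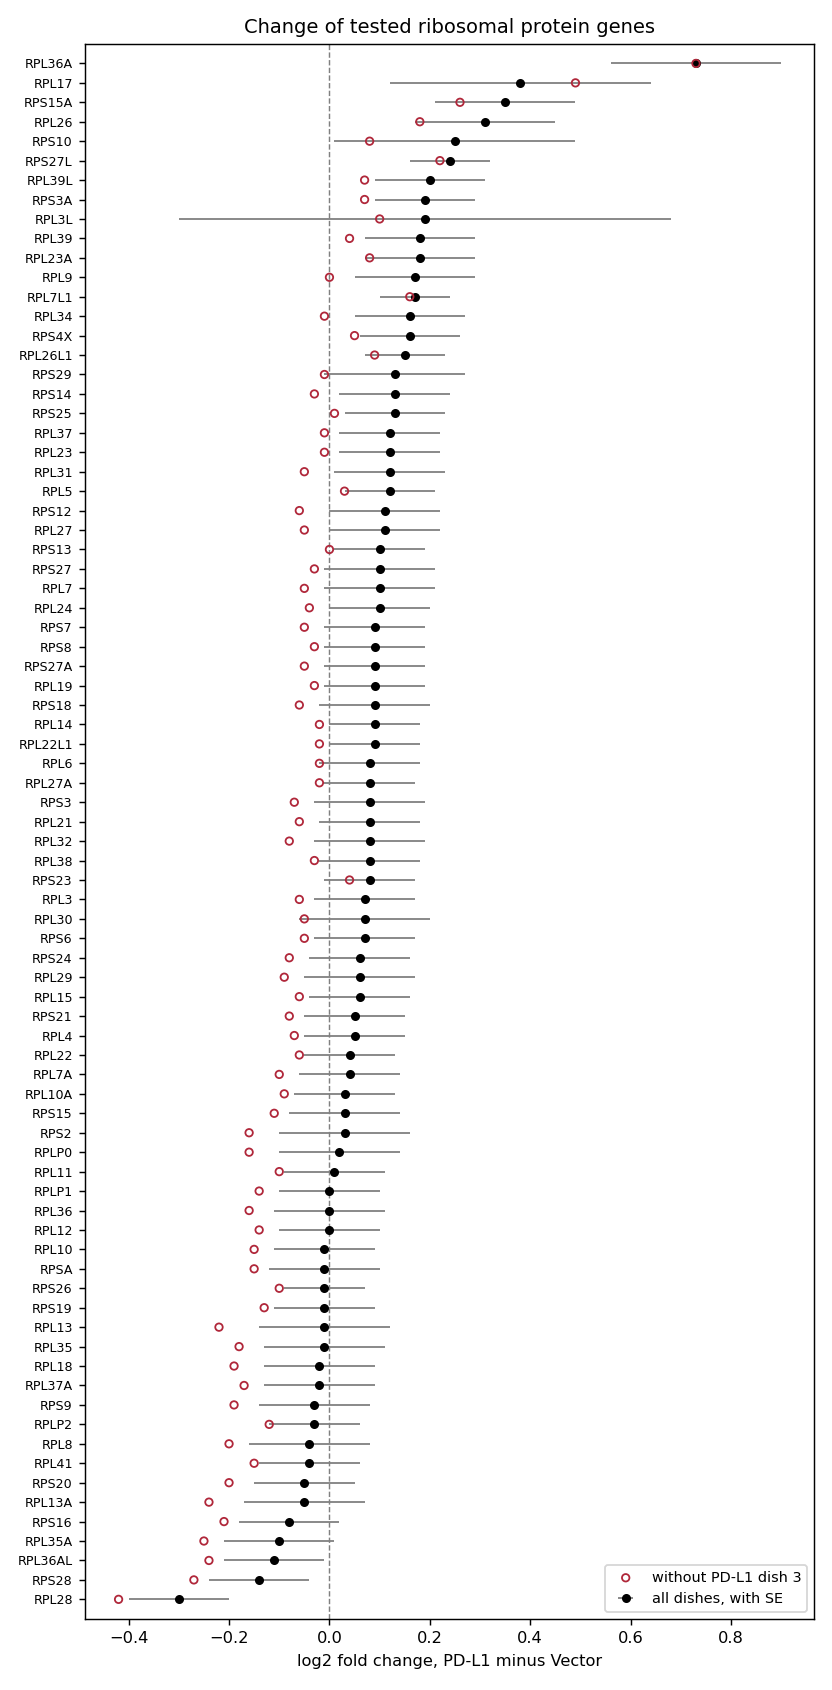
Log2 fold change (PD-L1 minus Vector) of tested ribosomal protein genes, with black points and SE bars for all 6 dishes and open red circles for the fit without PD-L1 dish 3. RPL36A at 0.73 and RPL28 at -0.30 mark the ends, and most red circles lie to the left of their black point.

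The most visible feature of the family was a shift of 1 dish. PD-L1 dish 3 had the highest CPM of all 6 dishes in 76 of 83 members, against 20.1% of all tested genes, and lay above the Vector mean in 82 of 83, against 52.0%. The exception was RPL28. The median deviation of the members from the Vector mean was -0.03, -0.09 and 0.28 on the log2 scale in PD-L1 dishes 1 to 3, against 0.03, 0.05 and -0.08 in Vector dishes 1 to 3. PD-L1 dish 2 was at the other extreme, with the lowest CPM of the 6 dishes in 48 members (14.0% of all tested genes), and Vector dish 3 was the lowest in 26 (10.6%). In 49 members PD-L1 dishes 1 and 2 were both below the Vector mean while PD-L1 dish 3 was above it. The share of all tested genes with this pattern was not counted.

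**Figure D3:**
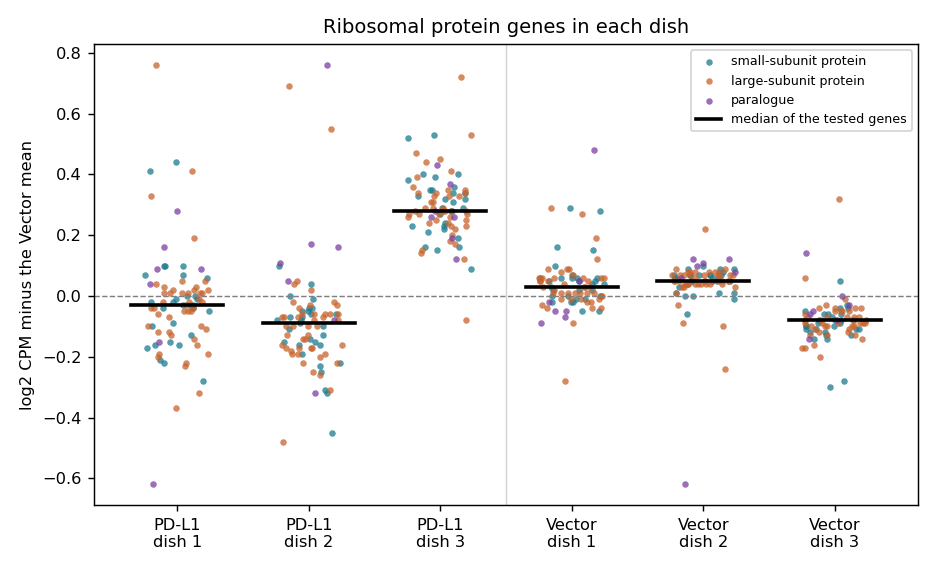
Log2 CPM of each of the 83 tested genes minus its mean over the 3 Vector dishes, by dish; points are genes coloured by subunit, and black bars are medians. The median of PD-L1 dish 3 is 0.28, whereas the other 5 medians lie between -0.09 and 0.05.

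The same shift appeared in the share of all reads. Of all counts, the members made up 8.19, 7.89 and 9.93% in PD-L1 dishes 1 to 3, against 8.24, 8.44 and 7.74% in Vector dishes 1 to 3. PD-L1 dish 3 was the highest, and on these raw shares PD-L1 dishes 1 and 2 lay within the range of the Vector dishes. CPM also carry the TMM scaling between libraries. Its factors were 1.042, 1.037 and 0.9797 in PD-L1 dishes 1 to 3, against 0.977, 0.9777 and 0.9895 in Vector dishes 1 to 3. With that scaling PD-L1 dishes 1 and 2 stand lower against the Vector dishes than on raw shares. The mean raw shares were 8.67 ± 1.10% in PD-L1 and 8.14 ± 0.358% in Vector dishes, a difference of 0.53 percentage points, and -0.0992 without PD-L1 dish 3. Small-subunit genes took 3.10, 2.98 and 3.77% in PD-L1 dishes, against 3.12, 3.19 and 2.90% in Vector dishes. Large-subunit genes took 5.00, 4.82 and 6.06% in PD-L1 dishes, against 5.04, 5.16 and 4.76% in Vector dishes. Both subunits thus showed the dish 3 pattern. The coefficient of variation between dishes had a median of 15.4% in PD-L1 and 5.89% in Vector dishes over the 76 tested subunit genes, beside 10.0% in PD-L1 and 7.85% in Vector dishes over all tested genes.

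Other measures were set beside this shift. Among 1903 other tested genes with transcripts under 1000 bases, the median deviation was 0.05, -0.02 and 0.13 in PD-L1 dishes 1 to 3, against -0.00, 0.05 and -0.05 in Vector dishes 1 to 3. With the GC and length offset, the members' medians were -0.04, -0.06 and 0.20 in PD-L1 dishes and 0.01, 0.02 and -0.04 in Vector dishes. Those of the other short genes were then 0.05, 0.03 and 0.01 in PD-L1 dishes 1 to 3. Mitochondrially encoded genes, a measure often used for RNA quality, made up 2.71, 2.51 and 2.46% of the counts in PD-L1 dishes, against 2.63, 2.84 and 2.97% in Vector dishes. After the offset the members' median was still highest in PD-L1 dish 3. The mitochondrial share of PD-L1 dish 3 was the lowest of the 6, and that of PD-L1 dish 2 was the next lowest. The part of transcript length or RNA quality in the shift was not tested.

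Small-subunit proteins of known role followed the common pattern. RPS3, which sits at the mRNA entry, had 2326, 2282 and 3075 CPM in PD-L1 dishes 1 to 3, against 2445, 2520 and 2280.3 CPM in Vector dishes 1 to 3. RPS6, the substrate of S6 kinase downstream of mTORC1, had 1312, 1269 and 1623 CPM in PD-L1 dishes, against 1359, 1384 and 1267 CPM in Vector dishes. In both genes PD-L1 dish 3 was the highest, dishes 1 and 2 lay within the Vector range, and the log2 fold changes of 0.08 ± 0.11 and 0.07 ± 0.10 did not pass the test. RPSA, also described as the laminin receptor precursor, had a log2 fold change of -0.01 ± 0.11. RPS19, the gene most often mutated in Diamond-Blackfan anaemia, had -0.01 ± 0.10, RPS14, known from the 5q- syndrome, 0.13 ± 0.11, and RPS27A, made as a fusion with ubiquitin, 0.09 ± 0.10. RPS4X, an X-linked small-subunit protein, had 0.16 ± 0.10. None of them passed, with adjusted p of 0.363 to 0.976 over these genes in edgeR's quasi-likelihood test.

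The large-subunit genes that link the ribosome to p53 did not pass the test either. RPL5 had 1802, 1774 and 2148 CPM in PD-L1 dishes 1 to 3, against 1712, 1849 and 1696 CPM in Vector dishes 1 to 3. RPL11 had 665, 616 and 792 CPM in PD-L1 dishes, against 715, 704 and 644 CPM in Vector dishes. For both genes PD-L1 dish 3 was the highest of the 6 and the groups overlapped. Their log2 fold changes were 0.12 ± 0.09 and 0.01 ± 0.10. The stalk proteins RPLP0, RPLP1 and RPLP2, which recruit the elongation factors, had log2 fold changes of 0.02 ± 0.12, -0.00 ± 0.10 and -0.03 ± 0.09. RPL10, a late-joining protein at the subunit interface, had -0.01 ± 0.10, and RPL13A, a component of a translation-silencing complex in human monocytes, had -0.05 ± 0.12.

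The comparison was also made without PD-L1 dish 3, which was left out because its members were the highest. A lower median, fewer members above 0 and lower calls among the members are favoured by that choice. Values and adjusted p without this dish, here and below, are given as a description. Leaving out PD-L1 dish 1 or PD-L1 dish 2 in its place gave 0 lower members each (background 3.7% and 4.18%). Without PD-L1 dish 3, 14 of 83 members were lower (background 13.8%) and 2 were higher (background 7.81%). Together that was 16 of 83 against 21.6% of all genes, so the members' share lay close to or under the background in each direction. The median log2 fold change of the members was then -0.06, beside 0.01 over all tested genes, and 18 of 83 members were above 0 (51.6% of all tested genes). With all dishes it was 58 of 83 (53.6% of all tested genes). RPL28 had a log2 fold change of -0.42 (adjusted p = 7.57e-05), RPS28 of -0.27 (0.00470) and RPL35A, a Diamond-Blackfan anaemia gene, of -0.25 (0.00959). With all dishes the adjusted p of RPL28, RPS28 and RPL35A was 0.0749, 0.409 and 0.644 in edgeR's quasi-likelihood test. Further lower members included RPL13A, RPL36AL, RPL13, RPS16, RPL8, RPS20, RPL18 and RPS9, with log2 fold changes of -0.24 to -0.19. RPL36A and RPS27L were the 2 higher members, at 0.73 and 0.22.

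RPL13A shows the pattern of these genes. It had 1413, 1384 and 1978 CPM in PD-L1 dishes 1 to 3, against 1753, 1687 and 1502 CPM in Vector dishes 1 to 3. PD-L1 dishes 1 and 2 lay below all Vector dishes and PD-L1 dish 3 above them. PD-L1 dish 3 was likewise the highest of the 6 dishes in 13 of the 14 lower members, with RPL28 the exception. In 24 members both PD-L1 dishes 1 and 2 lay below the Vector dishes without overlap (background 27.0%), and in 4, RPL17, RPL36A, RPL7L1 and RPS27L, above them (background 25.5%).

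The 14 lower members had a median GC content of 55.6%, beside 49.7% over all tested members. RPL36AL (42.4%), RPL35A (44.2%) and RPS20 (46.3%) lay below that 49.7%. Across the 76 subunit genes, GC content and the mean deviation of PD-L1 dishes 1 and 2 had a Spearman correlation of -0.65, and GC content and the deviation of dish 3 one of -0.33. Over the 15436 tested genes with a GC value the same correlations were -0.37 and 0.01. These are descriptions across genes that share libraries, and genes are not independent replicates. The 25 subunit genes of lowest GC content (42.6 to 47.5%) had a median log2 fold change of 0.10, and the 26 of highest GC content (52.3 to 62.4%) one of -0.01. Without PD-L1 dish 3 these medians were -0.01 and -0.16.

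**Figure D4:**
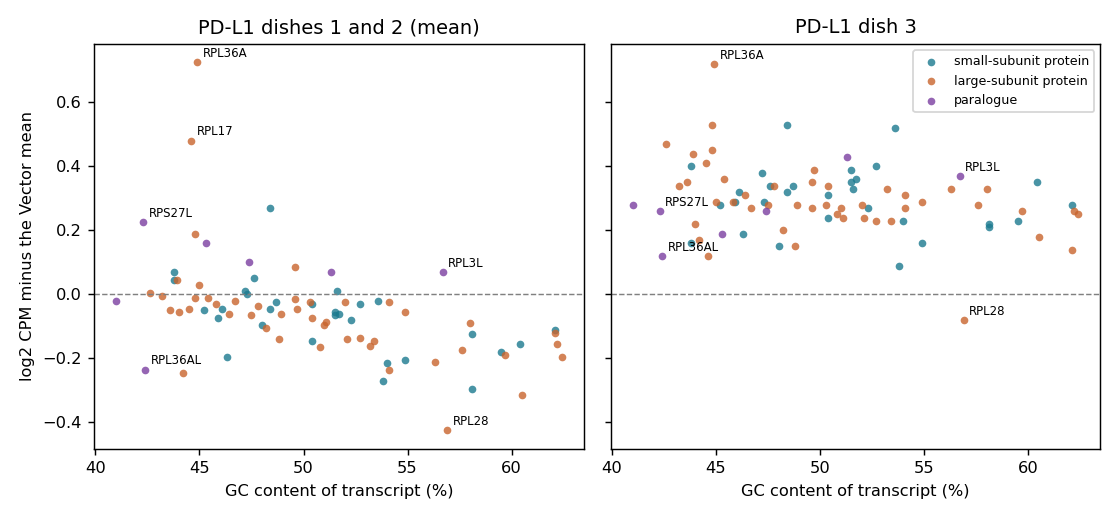
Log2 CPM minus the Vector mean against the GC content of the transcript for the 83 tested genes, as the mean of PD-L1 dishes 1 and 2 (left) and for PD-L1 dish 3 (right). The left cloud slopes down (Spearman -0.65 over the 76 subunit genes), and the right cloud lies above 0 except for RPL28.

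Once GC content and transcript length were fitted as an offset, the correlation of the log2 fold change with GC content was -0.04, against -0.58 before it. Over all tested genes with a GC value it was 0.04, against -0.29 before it. The offset is fitted to remove such a trend in each dish, so this loss of correlation follows from its construction. The part of GC content in the members' changes was not tested. With that offset and without PD-L1 dish 3, 11 members were lower (background 11.2%) and 1 was higher (background 10.5%), and 9 of the 11 were among the 14 above. RPL28 (-0.30, adjusted p = 0.000197), RPL35A (-0.29), RPL36AL (-0.32), RPS20 (-0.22), RPS28 (-0.20), RPL13A and RPS16 were among those that passed in both. RPL18, RPL8, RPL13 and RPS9 no longer passed. With the offset and all 6 dishes, 3 members passed (background 14.4%), RPL36A (0.66), RPL7L1 (0.19, adjusted p = 0.0401) and RPL28.

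Relative to the median subunit gene of the same dish, more members had groups that did not overlap. On this scale 12 members were higher in every PD-L1 dish than in every Vector dish (background 2.17% of all tested genes) and 18 were lower (background 15.1%). The subtraction removes a shift that the members share and that other genes do not, so members and background are not on equal terms here. The higher members were RPL23, RPL27, RPL31, RPL34, RPL36A, RPL39, RPL39L, RPL9, RPS14, RPS18, RPS25 and RPS3A, with a median GC content of 45.1%. The lower members, with a median GC content of 54.5%, included RPL13A, RPL18, RPL28, RPL35A, RPL36, RPL36AL, RPL37A, RPL41, RPL8, RPLP1, RPS16, RPS19, RPS20, RPS28 and RPS9. The differences ran up to 0.68 (RPL36A) among the higher and down to -0.35 (RPL28) among the lower members.

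RPL39 and RPS28 are examples picked from the members whose groups did not overlap. Relative to the median subunit gene, RPL39, a short protein of the exit tunnel, was at 0.02, 0.08 and 0.04 log2 units in PD-L1 dishes 1 to 3, against -0.12, -0.05 and -0.06 in Vector dishes 1 to 3. RPS28 was at -1.14, -1.17 and -1.20 in PD-L1 dishes, against -0.95, -1.03 and -0.93 in Vector dishes. In both genes PD-L1 dish 3 lay near the other PD-L1 dishes on this scale. That did not hold for each such member: RPL36A was at -7.24, -7.24 and -7.65 in PD-L1 dishes, against -8.38, -7.89 and -7.91 in Vector dishes.

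The paralogues, which can replace or accompany their partners in some tissues, were examined apart. Together they made up 0.0922, 0.0888 and 0.0940% of all raw counts in PD-L1 dishes 1 to 3, against 0.0793, 0.0856 and 0.0795% in Vector dishes 1 to 3. On these raw shares every PD-L1 dish lay above every Vector dish. RPL7L1 contributed most to this sum, with 49758 counts over all dishes, followed by RPL36AL with 16794. Taken singly and in CPM, only RPL7L1 and RPS27L had groups that did not overlap. CPM, unlike the raw shares, carry the TMM scaling between libraries, with factors of 1.037 in PD-L1 dish 2 and 0.9777 in Vector dish 2. In CPM, RPL36AL, RPL22L1, RPL26L1 and RPL39L were each lower in PD-L1 dish 2 than in Vector dish 2, and RPS27L and RPL3L were higher. The separation of the sum is thus not shown for the paralogues without RPL7L1, nor on the CPM scale. The 7 tested paralogues had a median log2 fold change of 0.17 and of 0.09 without PD-L1 dish 3, and 6 of 7 were above 0. None passed an FDR of 0.05 with all dishes. The difference between paralogues and subunit genes was not tested.

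RPS27L (ENSG00000185088, chromosome 15), a p53-inducible paralogue of RPS27, had 82.1, 75.7 and 81.0 CPM in PD-L1 dishes 1 to 3, against 65.4, 72.8 and 64.6 CPM in Vector dishes 1 to 3. The PD-L1 dishes were higher without overlap. The log2 fold change was 0.24 ± 0.08, and the adjusted p in edgeR's quasi-likelihood test was 0.0832. With the GC and length offset the log2 fold change was 0.13 (adjusted p = 0.103). Without PD-L1 dish 3 the log2 fold change was 0.22 (adjusted p = 0.0375) without the offset and 0.14 (adjusted p = 0.0783) with it. RPS27L overlaps LACTB on the opposite strand. Its canonical partner RPS27 had 678, 655 and 859 CPM in PD-L1 dishes, against 751, 677 and 614 CPM in Vector dishes. The groups overlapped, and the log2 fold change was 0.10 ± 0.11.

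RPL7L1 (ENSG00000146223, chromosome 6), a relative of RPL7 that acts in ribosome assembly, had 452, 451 and 461 CPM in PD-L1 dishes 1 to 3, against 390.2, 420.3 and 404 CPM in Vector dishes 1 to 3. All PD-L1 dishes lay above all Vector dishes, and PD-L1 dish 3 was not set apart. The log2 fold change was 0.17 ± 0.07 (adjusted p = 0.172 in edgeR's quasi-likelihood test, 0.0401 after the GC and length offset). RPL7 itself had a log2 fold change of 0.10 ± 0.11.

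RPL26L1, nearly identical to RPL26, had 91.1, 92.5 and 103 CPM in PD-L1 dishes 1 to 3, against 81.7, 93.3 and 82.9 CPM in Vector dishes 1 to 3. RPL39L, a germ-cell-enriched paralogue of RPL39, had 26.4, 25.6 and 33.5 CPM in PD-L1 dishes, against 23.3, 27.0 and 24.3 CPM in Vector dishes. In both genes PD-L1 dish 3 was the highest of the 6 and Vector dish 2 lay inside the PD-L1 range. The log2 fold changes were 0.15 ± 0.08 and 0.20 ± 0.11, beside 0.31 ± 0.14 for RPL26 and 0.18 ± 0.11 for RPL39. None of these 4 passed the test.

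RPL22L1, whose mouse counterpart is held down by RPL22, had 101, 93.1 and 120 CPM in PD-L1 dishes 1 to 3, against 97.4, 106 and 93.0 CPM in Vector dishes 1 to 3. RPL36AL, whose protein is nearly identical to that of RPL36A, had 134, 119 and 162 CPM in PD-L1 dishes, against 154, 157 and 135 CPM in Vector dishes. The groups overlapped in both. Their log2 fold changes were 0.09 ± 0.09 and -0.11 ± 0.10, so RPL36A and RPL36AL differed in sign, and RPL22 had 0.04 ± 0.09. RPL3L, a striated-muscle paralogue of RPL3, had 5, 13 and 11 counts in PD-L1 dishes 1 to 3, against 14, 5 and 9 counts in Vector dishes 1 to 3. At these counts its log2 fold change of 0.19 ± 0.49 could not be told from 0, and RPL3 had 0.07 ± 0.10.

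**Figure D5:**
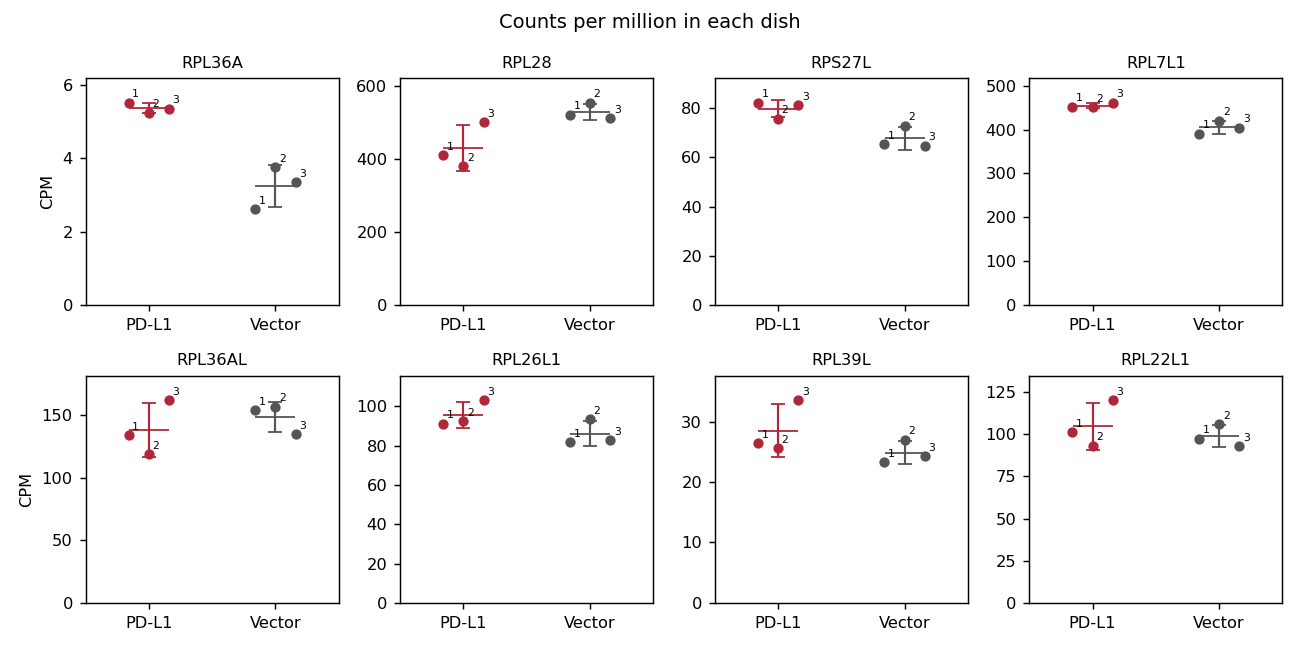
CPM in each dish for RPL36A, RPL28 and 6 paralogues, PD-L1 left and Vector right in each panel, with dish numbers beside the points; horizontal marks are means and bars are SD over 3 dishes. RPL36A, RPS27L and RPL7L1 are higher and RPL28 is lower in PD-L1 without overlap, and PD-L1 dish 3 is the highest point for RPL36AL, RPL26L1, RPL39L and RPL22L1.

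Members with and without a TOP tract were set side by side, and the difference was not tested. The 47 tested members with the tract at the RefSeq start had a median log2 fold change of 0.06, and the 20 without it one of 0.08. The median deviations of those with the tract were -0.03, -0.11 and 0.28 in PD-L1 dishes 1 to 3, and of those without it 0.00, -0.07 and 0.28. TOP mRNAs that are not members also had their highest median in that dish. Of 16 tested ones, 0 passed the test, with a median log2 fold change of 0.01 and a median deviation of -0.03, -0.05 and 0.16 in PD-L1 dishes 1 to 3, against -0.02, 0.04 and -0.03 in Vector dishes 1 to 3.

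Of the ribosomal proteins that the symbol rule does not cover, FAU, made as a fusion with a ubiquitin-like protein, had 160.4, 149 and 201 CPM in PD-L1 dishes 1 to 3, against 190.1, 173 and 151 CPM in Vector dishes 1 to 3. The groups overlapped, with PD-L1 dish 3 the highest. The log2 fold changes were -0.01 ± 0.11 for FAU and 0.00 ± 0.10 for RACK1, a ribosome-bound scaffold, and neither passed the test.

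Other genes of translation and ribosome assembly were counted in the same way, against the background of 1.55% higher and 7.2% lower over all tested genes. In lists of 8 or 18 genes, 0 calls are about what that share gives. Among elongation factors 0 of 8 tested genes passed, with a median log2 fold change of -0.02, EEF1A1 having 0.00 ± 0.10 and EEF2 -0.09 ± 0.10. Of 36 initiation factors and poly(A)-binding proteins 0 passed, of 63 assembly factors 0 and of 18 genes of RNA polymerase I and its regulators 0, with median log2 fold changes of -0.02, 0.03 and 0.08. Without PD-L1 dish 3, the elongation factors had 0 higher and 3 lower, the initiation factors 2 higher and 9 lower, the assembly factors 3 higher and 7 lower, and the polymerase I genes 0 in either direction, where all tested genes had 7.81% higher and 13.8% lower. Of 74 mitochondrial ribosomal protein genes 1 rose, MRPS25 (0.31 ± 0.08, adjusted p = 0.0318), and 0 fell, with a median of 0.03 and a median deviation of 0.15 in PD-L1 dish 3.

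Regulators of ribosomal protein mRNAs and of p53 gave counts that are also read against 1.55% higher and 7.2% lower over all genes, and 1 or 2 calls in such lists single out no pathway. Of 17 genes of the mTORC1 and LARP1 pathway 2 fell and 0 rose (median -0.01 on the log2 scale). RPTOR, the scaffold of mTORC1, had 56.7, 66.0 and 63.9 CPM in PD-L1 dishes 1 to 3, against 86.4, 69.3 and 79.4 CPM in Vector dishes 1 to 3. It fell by 0.34 ± 0.09 on the log2 scale (adjusted p = 0.0407), and AKT1S1, the mTORC1 inhibitor PRAS40, fell by 0.28 ± 0.08 (adjusted p = 0.0438). With the GC and length offset neither passed, RPTOR at -0.15 (adjusted p = 0.0828) and AKT1S1 at -0.13 (0.103). Of 6 genes of p53 and its regulators 1 rose, MDM2, the p53 ubiquitin ligase, with 206, 219 and 153 CPM in PD-L1 dishes against 129.6, 143 and 156 CPM in Vector dishes. Its log2 fold change was 0.43 ± 0.12 (adjusted p = 0.0346), and with the GC and length offset 0.31 (adjusted p = 0.304). PD-L1 dish 3 lay within the Vector range for MDM2. Among 15 noncoding snoRNA host genes 1 fell, SNHG16, by 0.29 ± 0.08 (adjusted p = 0.0452), and GAS5, a host gene with a TOP tract, had a log2 fold change of 0.15 ± 0.10.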

How the data were processed

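CASAVA 1.8, STAR 2.5.1b, HTSeq 0.6.0 and build hg19 are named in the submitters' processing notes. Not given in the sources used here are the annotation, read filters and strand setting. The authors deposited raw counts per Ensembl gene and normalized counts on a signal scale, 1 column per dish; the deposited signal served only for size factors. Symbols came from a gene name table (51996 IDs) and GENCODE 29 (342 IDs), which also gave biotype, principal-transcript length, GC content and overlaps; its build differs, so no coordinates were taken from it. Gene starts are RefSeq's.

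Counts of all 6 dishes were fitted in R 4.3.3 with edgeR 4.0.16 (filterByExpr, TMM, robust quasi-likelihood F test, Benjamini-Hochberg over 15818 genes, FDR 0.05). Fold changes are PD-L1 over Vector; SEs derive from the F statistic. CPM are TMM-scaled, log2 CPM with prior count 2. Alternatives included DESeq2 1.42.0, limma-voom 3.58.1, other scalings and filters, each dish left out, member pseudogene reads added, and a GC and length offset (splines, 5 degrees of freedom per dish). The last without PD-L1 dish 3 was chosen after seeing the data. Fits were tested on simulated counts. Members, lists and named genes (the lowest and highest fold changes, the most abundant members, paralogues and members of known role) were chosen with earlier results of these data known. Dishes of a group differed beyond sampling noise (chi-square per degree of freedom 3.02 to 16.1). Python 3.11.15, pandas 2.3.3 and matplotlib 3.10.9 made tables and plots. Results of some single genes are not reported here; these genes stayed in the fits and counts.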

Additional observations from a re-analysis of the deposited data

How the results depend on the processing

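Of all genes, 1384 passed with the settings of the report, 2271 with the GC and length offset, 530 at an FDR of 0.01, 3531 without PD-L1 dish 3 with the offset and 545 to 3512 with 1 dish left out (641, 745 and 3512 on leaving out PD-L1 dish 1, 2 or 3, and 545 on leaving out Vector dish 1). Of the members, 1 passed in the report, 2 with DESeq2, 3 without a low-count filter, 0 at a mean of at least 5 CPM, 3 with the offset, 2 with replicate block and offset, 0 with pseudogene reads added, 0 at an FDR of 0.01, 12 without PD-L1 dish 3 with the offset and 0 to 16 with 1 dish left out. The cause of these moves was not tested, except that the filter at 5 CPM leaves out RPL36A. Same-numbered dishes had deviation correlations of -0.212, -0.051 and -0.192, so numbers were not taken as pairs; the replicate block gave 1447 genes and 1 member. The members' median log2 fold change was 0.076, -0.056 to 0.153 with 1 dish left out, negative only without PD-L1 dish 3, and 0.109 with upper-quartile scaling. The difference in their share of raw counts ran from -0.0992 to 0.92 percentage points. RPL22L1 turned to -0.01 with the offset, -0.02 with block and offset and -0.12 without PD-L1 dish 3 with the offset, and RPL5 to -0.00 in the last. With 1 dish left out, RPL22L1 ran from -0.02 to 0.17, RPL3L from -0.16 to 0.58, RPS16 from -0.21 to 0.01, RPS20 from -0.20 to 0.03 and RPL41 from -0.15 to 0.03. Low counts limit RPL36A, RPL17, RPS10 and RPL3L.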
